A study of Mus musculus with 4 samples.

Results

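Fibroblast growth factor (FGF) signalling was described through 10 genes: the Fgf9 subfamily (Fgf9, Fgf16 and Fgf20), the mesenchymal ligand genes Fgf7 and Fgf10, the receptor kinase genes Fgfr1, Fgfr2, Fgfr3 and Fgfr4, and Fgfrl1. They were found by gene symbol, by a rule that uses no measured value, although earlier results of these data were known when the genes were listed. Each was found in 1 row of the table of 51098 genes. The RNA came from stomachs of mouse embryos at E15.5 (days of gestation). Of the 4 samples, 2 were homozygous for the Fgf9LacZ allele (genotype Fgf9LacZ/LacZ, Fgf9KO, called Fgf9_null here) and 2 carried it beside a normal copy (genotype Fgf9LacZ/+, control, called Fgf9_het here), so the controls carried the allele too. Replicate numbers 2 and 3 are used in each group. The labels name no other treatment, and they do not say which part of Fgf9 the LacZ allele removes or whether a sample was 1 stomach or a pool.

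FGFs are secreted proteins that activate receptor tyrosine kinases together with heparan sulfate at the cell surface. In developing foregut organs, FGF9 is made mainly by epithelium and mesothelium and acts on the mesenchyme, through the receptor isoforms called IIIc. FGF7 and FGF10 are made by mesenchyme and act on epithelium through the IIIb isoform of FGFR2. Alternative splicing of the same gene makes the IIIb and IIIc forms, and counts per gene, as used here, do not separate them.

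The 4 columns hold only 2 independent libraries. Estimated counts summed to 19269851 to 22713416 per column. Between the same-numbered columns of the 2 labels, counts were equal within 0.001 reads for 60.8% of 21487 genes (replicate 2) and 59.1% of 21788 genes (replicate 3) with a summed count of at least 10. A chi-square statistic of the counts, per degree of freedom and without 4 genes (Rn7s1, Rn7s6, Gm19220 and Gm26461, chosen after their values were seen), was 0.000792 for replicate 2 and 0.00385 for replicate 3, against 5.49 to 5.50 for columns of different number. Over all genes it was 4.46 and 4.64 for the same-numbered pairs and 5.50 to 10.6 for the others. Outside the 4 genes, a same-numbered pair thus differed by less than its sampling noise, and it was counted as 1 sample. The samples are called library 2 and library 3, and n is 2 libraries for every level below. Which genotype either library had is not resolved by these columns. Markers of the tissue were present: 5 of 5 stomach mesenchyme genes and 5 of 5 gastric epithelium genes reached 1 CPM (reads per 1000000 reads of the column) in both libraries. Of the 4 markers each of neighbouring organs, 1 reached that level for pancreas (Pdx1), lung and oesophagus (Trp63) and intestine (Vil1), and 4 did for liver. A single gene of a list at that level does not show that the organ was present. The summed levels of these lists were 6.24 and 6.25, 22.3 and 12.9, 23.2 and 22.4, and 34.5 and 56.4 CPM in libraries 2 and 3. Of the liver genes, Alb had 4.38 and 11.8 CPM and Afp 3.61 and 12.2 CPM. Apoa1, at 17.8 and 21.6 CPM, and Ttr, at 8.63 and 10.8 CPM, differed less. The pancreas genes Ptf1a and Ins2, the lung gene Sftpc and the intestinal gene Cdx1 had no reads.

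Fgf9 itself, the gene the study targeted, had 133 and 131 reads (replicates 2 and 3) under the Fgf9_null label and the same 133 and 131 reads under the Fgf9_het label. The gene (ENSMUSG00000021974) lies on GRCm38 chromosome 14, 58070547 to 58112720, plus strand. In CPM, its level was 6.81 and 5.77 under Fgf9_null and 6.90 and 5.84 under Fgf9_het. As the reads were equal, the higher CPM under Fgf9_het came from smaller column totals. These were 19269851 against 19537211 in replicate 2 and 22425865 against 22713416 in replicate 3. The same totals apply to the CPM of every gene below. The values of the 2 labels overlapped, as each library stands under both, and library 2 was the higher. As the allele may leave transcribed parts of the gene in place, this level does not check the genotype.

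None of the other 9 genes separated the labels either. Over all 10 genes, same-numbered columns differed by at most 2 reads, a difference reached by Fgfr2 and Fgfr3. edgeR's quasi-likelihood test called 0 of the 10 genes, where it called 0% of the 19987 genes tested (0 genes at an adjusted p under 0.05 and 4 at an unadjusted p under 0.05). DESeq2 called 3 of these genes, none of them among the 10. The log2 fold of Fgf9_null over Fgf9_het in edgeR was 0.000331 (SE 0.132) for Fgf9 and -0.00109 (SE 0.0580) for Fgfr3, the largest absolute value of the 10, each at an adjusted p of 1. Because each library stands under both labels, this test set a library against itself and does not measure an effect of Fgf9.

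**Figure D1:**
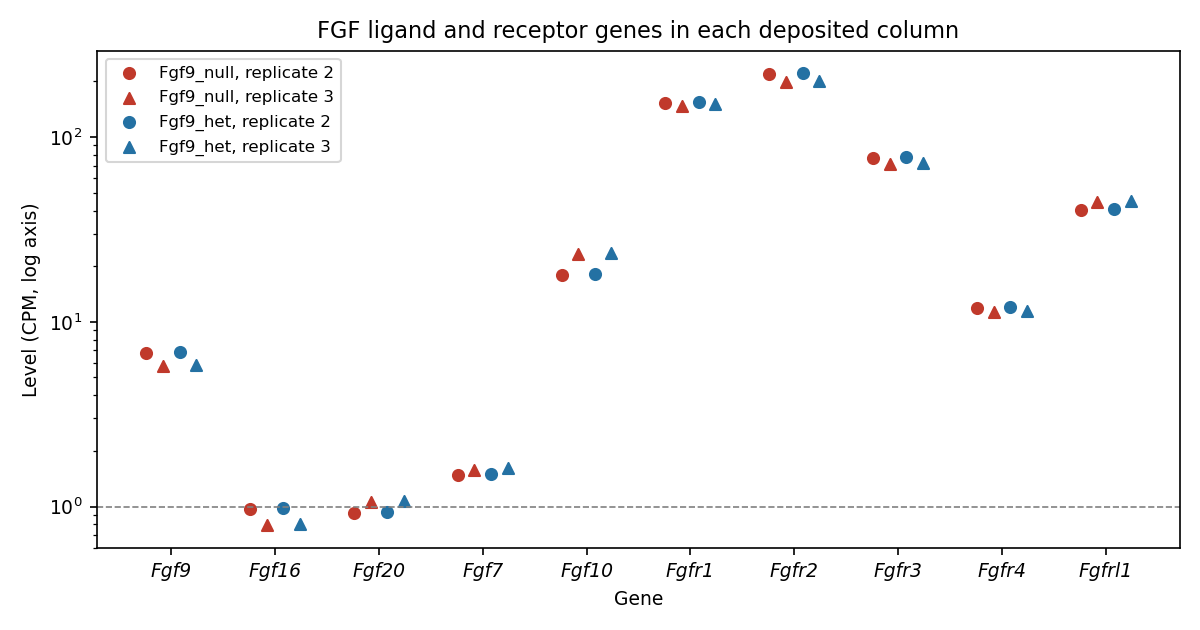
Level of each of the 10 genes in the 4 deposited columns, in CPM on a log axis; red marks the Fgf9_null label, blue the Fgf9_het label, circles replicate 2 and triangles replicate 3, and the dashed line stands at 1 CPM. For each gene the red and blue symbols of the same shape lie at nearly the same height, as for Fgf10 at 18.0 and 18.2 CPM in replicate 2 and 23.3 and 23.6 CPM in replicate 3.

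What the columns do show is the level of each ligand and receptor in embryonic stomachs labelled as carrying the Fgf9LacZ allele. No sample is labelled as free of it. The level of Fgf9, and its ratios and shares below, therefore do not stand for a normal stomach. Of the 10 genes, 8 reached 1 CPM in both libraries, and the exceptions, Fgf16 and Fgf20, lay close to that level. To compare genes, CPM was divided by the length of the gene's annotated exons in kilobases (CPM per kb). On that scale the 4 receptor kinase genes together stood 6.63 ± 0.905 times (SD, n = 2 libraries) as high as the 5 ligand genes, at 7.27 times in library 2 and 5.99 times in library 3. It was 11.5 ± 1.54 times with the longest annotated transcript as the length and 7.41 ± 1.36 times with the median one. The order from the top was Fgfr2, Fgfrl1, Fgfr1, Fgfr3, Fgf10, Fgfr4, Fgf9, Fgf20, Fgf16 and Fgf7. The ranges of the 2 libraries overlapped between Fgfrl1 and Fgfr1, between Fgf20 and Fgf16 and between Fgf16 and Fgf7, so those neighbours could not be ordered. With the median transcript, Fgfr3 could not be ordered against Fgfr1 and Fgfrl1 either. Their ranges were then 73.9 to 80.1 (Fgfr3), 78.3 to 80.7 (Fgfr1) and 73.1 to 80.8 CPM per kb (Fgfrl1).

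**Figure D2:**
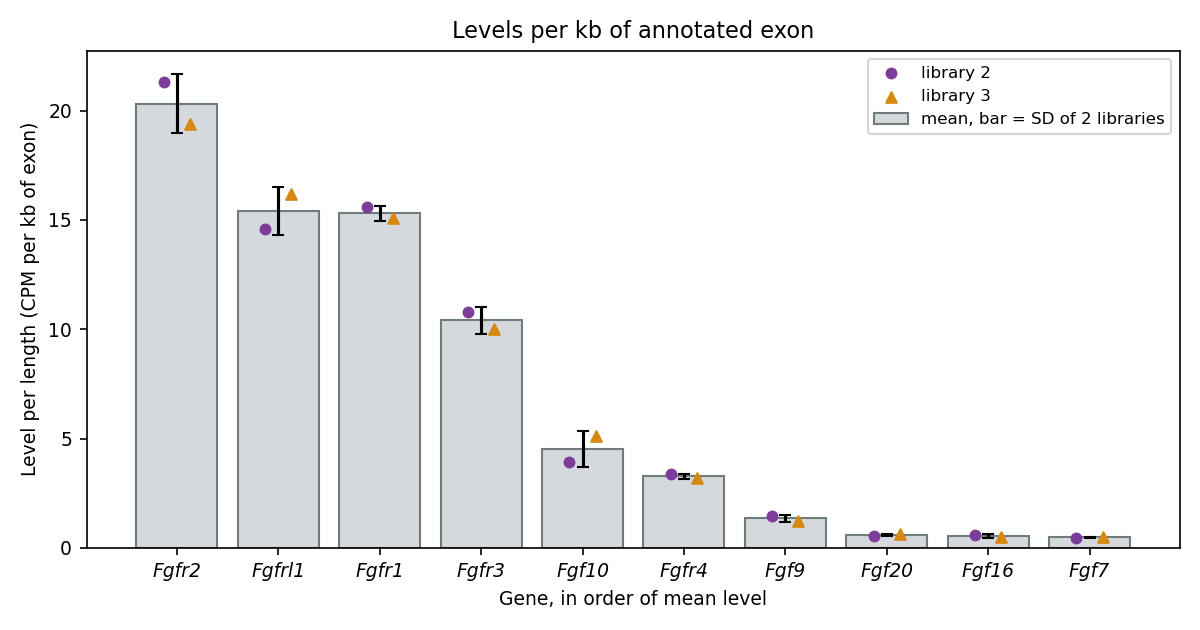
Level of each gene in CPM per kb of annotated exon, in descending order; bars are means of 2 libraries, error bars their SD, circles library 2 and triangles library 3. Fgfr2 stood at 20.3, Fgfrl1 and Fgfr1 at 15.4 and 15.3, and the 3 lowest genes, Fgf20, Fgf16 and Fgf7, between 0.476 and 0.593 CPM per kb.

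Among the genes of the Fgf9 subfamily, whose proteins are close relatives, Fgf9 had the highest level in these libraries, where its own gene was targeted. It averaged 6.33 ± 0.743 CPM, and the 133 and 131 reads of the 2 libraries had exact Poisson 95% intervals of 111 to 158 and 110 to 155 reads. All such intervals cover counting error only. Fgf16 (ENSMUSG00000031230, chromosome X, 105764279 to 105774939, plus strand) had 19 reads in replicate 2 and 18 in replicate 3 under either label, which gave 0.973 and 0.792 CPM for Fgf9_null and 0.986 and 0.803 CPM for Fgf9_het. All 4 values stayed under 1 CPM. Fgf20 (ENSMUSG00000031603, chromosome 8, 40279166 to 40308331, minus strand) had 18 and 24 reads under either label, or 0.921 and 1.06 CPM for Fgf9_null and 0.934 and 1.07 CPM for Fgf9_het. Replicate 3 was the higher there, but the Poisson intervals of 11 to 28 and 15 to 36 reads overlapped widely.

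Per kb, Fgf9 stood 2.53 ± 0.0695 times as high as Fgf16 and 2.32 ± 0.493 times as high as Fgf20. An SD of 2 libraries, here and elsewhere, can fall below counting error and is no measure of precision. For Fgf16 the Poisson intervals were 11 to 30 and 11 to 28 reads. Its share of the summed level of the subfamily per kb was 56.2% in library 2 and 52.7% in library 3. The size of the lead depended on the length used: with the median annotated transcript in place of all exons, the ratio was 8.42 ± 0.232 over Fgf16 and 4.75 ± 1.01 over Fgf20. Fgf20 overlaps Micu3, a gene on the opposite strand (chromosome 8, 40307458 to 40386308, plus strand). Of the 31-base words of Fgf20 transcripts, 10.6% also occur in Micu3 transcripts on either strand. Micu3 had 227 and 193 reads, well above Fgf20, and whether the counting used strand is not given in the sources used here. Reads of Fgf20 are therefore uncertain. For Fgf9 and Fgf16 82 of 4554 and 0 of 1615 such words were found in any other gene.

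The mesenchymal ligands were unequal. Fgf10, a ligand needed for branching and growth of foregut epithelium, had 351.5 reads in replicate 2 and 529.2 in replicate 3 under either label (ENSMUSG00000021732, chromosome 13, 118669791 to 118792115, plus strand). Its level was 18.0 and 23.3 CPM for Fgf9_null and 18.2 and 23.6 CPM for Fgf9_het. Library 3 was the higher, which is 1 difference shown under each label. Fgf7, also called keratinocyte growth factor, had 29 and 36 reads under either label (ENSMUSG00000027208, chromosome 2, 126034658 to 126091185, plus strand). This corresponded to 1.48 and 1.58 CPM for Fgf9_null and 1.5 and 1.61 CPM for Fgf9_het, with little difference between the 2 libraries. Per kb, Fgf10 stood 9.47 ± 1.29 times as high as Fgf7 and 3.38 ± 0.998 times as high as Fgf9. With the median annotated transcript these ratios were 44.8 ± 6.09 and 6.81 ± 2.01. Of the summed level of the 5 ligands per kb, Fgf10 took 56.1% in library 2 and 64.1% in library 3, and Fgf9 took 21.0% and 15.7%.

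The stretches of 250 bases before the RefSeq start of Fgf9, Fgf10 and Fgf7 are shown because these were the ligand genes that reached 1 CPM in both libraries. The windows are chr14:58072436-58072685 for Fgf9, chr13:118714449-118714698 for Fgf10 and chr2:126034408-126034657 for Fgf7, all on the plus strand of GRCm38.p6, and CpG dinucleotides are in capitals.
Fgf9: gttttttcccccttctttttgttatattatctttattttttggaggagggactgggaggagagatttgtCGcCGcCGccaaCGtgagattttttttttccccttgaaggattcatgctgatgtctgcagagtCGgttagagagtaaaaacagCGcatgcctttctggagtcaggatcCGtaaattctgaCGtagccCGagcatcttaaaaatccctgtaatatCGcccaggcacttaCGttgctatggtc
Fgf10: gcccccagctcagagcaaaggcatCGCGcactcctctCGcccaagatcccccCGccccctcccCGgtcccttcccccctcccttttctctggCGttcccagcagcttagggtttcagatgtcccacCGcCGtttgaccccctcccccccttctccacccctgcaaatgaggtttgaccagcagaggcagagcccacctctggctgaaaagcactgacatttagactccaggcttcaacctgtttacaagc
Fgf7: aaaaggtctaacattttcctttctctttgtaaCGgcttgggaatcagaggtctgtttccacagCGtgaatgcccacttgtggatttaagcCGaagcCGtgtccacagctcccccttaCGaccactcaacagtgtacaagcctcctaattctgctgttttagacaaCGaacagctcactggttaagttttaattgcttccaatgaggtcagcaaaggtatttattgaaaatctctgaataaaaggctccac
The Fgf9 window held 11 CpGs at 44.8% G and C, the Fgf10 window 8 CpGs at 61.2%, and the Fgf7 window 6 CpGs at 43.6%. The RefSeq table had 8 entries for 7 of the 10 genes and none for Fgf16, Fgf20 and Fgfr1. At least 10 CpGs were found in 5 of the 8 windows, against 37.8% of all 32851 promoter windows of that length. The GC box letters GGGCGG, searched on both strands, were found in 5 of the 8 windows, against 32.7% of all windows. Both Fgfr3 windows are among the hits for CpGs and for the GC box, so hits were counted by window and not by gene. The TATA box letters TATAAA were found in 0 of the 8, against 12.4%. These are matches of letters in a window, and binding was not measured. Annotated exons of the same gene covered 178 of the 250 bases of the Fgfr4 window. They covered 50 bases of the Fgfr3 window that starts at 33721474. The Fgf9 and Fgf10 windows lie wholly inside the annotated genes, which start at 58070547 and 118669791. So do the Fgfr2 and Fgfrl1 windows and the Fgfr3 window that starts at 33722056.

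Fgfr2 led the receptors. It encodes the receptor whose IIIb form binds FGF7 and FGF10 and whose IIIc form binds FGF9 (ENSMUSG00000030849, chromosome 7, 130162451 to 133123350, minus strand). Its level was 218.1 and 198.6 CPM under Fgf9_null and 221.1 and 201.2 CPM under Fgf9_het, from 4261 reads in library 2 and 4511 in library 3. Library 2 was the higher. Per kb, Fgfr2 took 41.7% and 40.6% of the summed level of the 4 receptor kinase genes in libraries 2 and 3. The annotated gene overlaps Ctbp2, and 2.69% of its 31-base words occur in Ctbp2 transcripts.

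Fgfr1, a main receptor of mesenchymal cells, had 152.6 and 148.0 CPM under Fgf9_null and 154.7 and 150.0 CPM under Fgf9_het (ENSMUSG00000031565, chromosome 8, 25513654 to 25575718, plus strand). The difference between replicates was small, and the intervals of the 2 libraries overlapped, at 148.2 CPM or more in library 2 and up to 154.1 CPM in library 3. Per kb, Fgfr2 stood 1.32 ± 0.0594 times as high as Fgfr1. That lead was 1.58 ± 0.0707 times with the longest annotated transcript and 1.19 ± 0.0535 times with the median one.

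Fgfr3, whose IIIc form is also a receptor of FGF9, had 77.0 and 71.0 CPM under Fgf9_null and 78.2 and 72.0 CPM under Fgf9_het (ENSMUSG00000054252, chromosome 5, 33721674 to 33737068, plus strand). Library 2 was slightly higher. Per kb, Fgfr2 stood 1.95 ± 0.0174 times as high as Fgfr3, at 1.96 and 1.94 in the 2 libraries. The length used moved this ratio, to 2.70 ± 0.0240 with the longest annotated transcript and 1.23 ± 0.0110 with the median one. Of the 31-base words of Fgfr3 transcripts, 14.9% occur in transcripts of other genes. Most of these, 12.3% of the words, are shared with G630022F23Rik, for which no value is used here. The processed pseudogene Fgfr3-ps, on chromosome 1, had 27.1 and 29.8 reads under Fgf9_null against 1504 and 1613 for Fgfr3.

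Fgfr4, known in the liver as a bile acid regulator that works with beta-klotho, was the lowest of the receptor kinases (ENSMUSG00000005320, chromosome 13, 55152640 to 55168759, plus strand). It had 11.8 and 11.3 CPM under Fgf9_null and 12.0 and 11.4 CPM under Fgf9_het. The 2 libraries lay within 1 CPM of each other. Per kb, Fgfr2 stood 6.18 ± 0.200 times as high, or 13.5 ± 0.438 times with the longest annotated transcript and 4.82 ± 0.156 times with the median one.

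Fgfrl1 encodes a receptor of this family that binds FGFs but lacks the kinase domain. It had 40.4 and 44.6 CPM under Fgf9_null and 40.9 and 45.3 CPM under Fgf9_het, with library 3 the higher (ENSMUSG00000008090, chromosome 5, 108692382 to 108706924, plus strand). Per kb it was level with Fgfr1, at 15.4 ± 1.09 against 15.3 ± 0.332. With the longest annotated transcript, Fgfr1 stood 1.64 ± 0.151 times as high as Fgfrl1, so the tie held only for the exon length and the median transcript (1.04 ± 0.0958).

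The libraries differed by less than 1.5-fold in these genes, as they did in most genes at 1 CPM or more. With 8 genes, the counts below do not set them apart from all genes. Between library 3 and library 2, 0 of the 8 genes that reached 1 CPM in both passed 1.5-fold, where 3.88% of 16712 genes did. A smaller difference, of over 25% in the library with the higher level, was seen for 1 of the 8, Fgf10, and for 14.6% of all genes. Each side is 1 library, so there is no replicate check and no test. The median log2 fold of library 3 over library 2 was -0.057 over the 8 genes and -0.016 over all genes.

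Fgf10 was 1.29 times as high in library 3, with a 95% counting interval of 1.13 to 1.49. Fgfrl1 stood at 1.11 times (1.01 to 1.21), Fgfr2 at 0.910 times (0.873 to 0.949) and Fgfr3 at 0.922 times (0.859 to 0.989). For the other 6 genes the counting interval held 1, and it was wide for Fgf16, from 0.403 to 1.64, and for Fgf20, from 0.596 to 2.24. These intervals narrow as reads increase. Over the whole table the libraries differed by more than counting error, at a chi-square per degree of freedom of 5.49 to 5.50. The share of all genes with an interval that leaves out 1 was not computed. Markers of several cell types moved between the libraries as well. The 5 stomach mesenchyme genes were all higher in library 3 and summed to 320.2 CPM in library 2 and 355.3 CPM in library 3. The 4 endothelial genes were all higher there too, at 250.6 and 290.5 CPM, as were the 4 blood and macrophage genes, at 828.4 and 1025.6 CPM, and the 4 liver genes, at 34.5 and 56.4 CPM. Of the 5 gastric epithelium genes 2 were higher in library 3, with sums of 5236.6 and 4848.8 CPM. Cym alone had 4882.5 and 4502.0 CPM of these sums. Of the 5 gut epithelium genes 2 were higher, with sums of 1377.5 and 1397.6 CPM. Of the 4 gut smooth muscle genes 3 were higher, at 5042.7 and 5257.4 CPM. Of the 5 neural crest and enteric neuron genes 3 were, at 191.3 and 195.8 CPM. The lung and oesophagus list went the other way, at 22.3 and 12.9 CPM, of which Trp63, a gene also expressed in squamous forestomach, had 21.9 and 12.8 CPM. The 5 mesothelial genes summed to 107.7 and 103.5 CPM, with Upk1b at 7.06 and 3.21 CPM. The part of these markers in the levels of Fgf10, Fgfrl1, Fgfr2 and Fgfr3 was not tested. In bulk tissue, fewer cells of a type and less RNA per cell cannot be told apart.

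**Figure D3:**
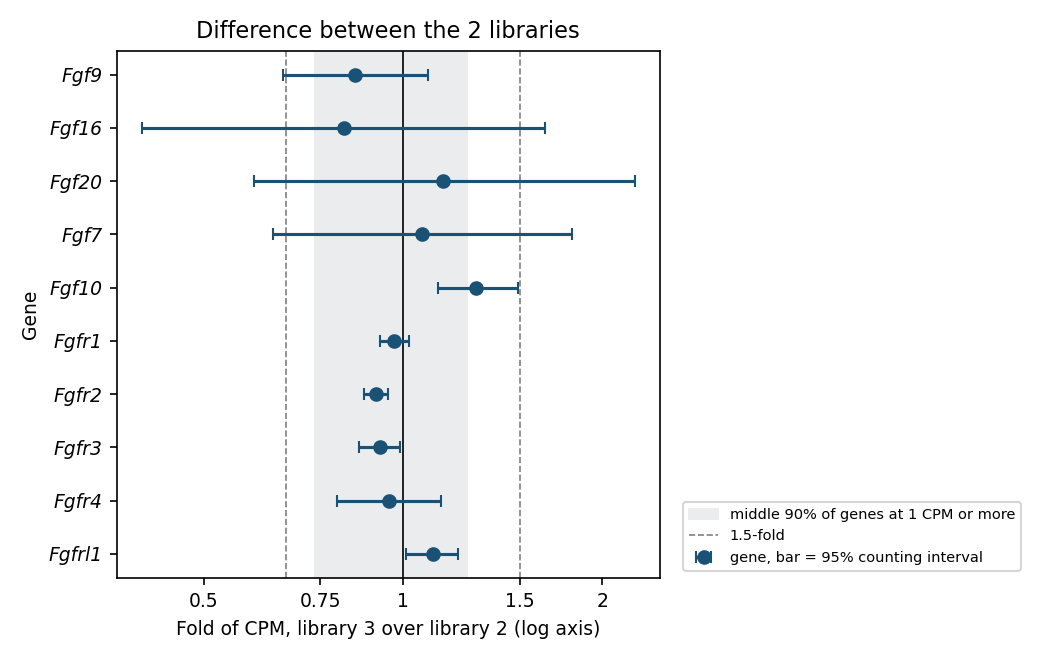
Fold of CPM in library 3 over library 2 on a log axis for each gene; points are the fold, bars the 95% counting interval, the grey band spans the 5th to the 95th percentile of genes at 1 CPM or more and dashed lines mark 1.5-fold. Fgf10, at 1.29, is the gene whose point lies outside the band, and the bars of Fgf16, Fgf20 and Fgf7, with few reads, are the widest.

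The rest of the pathway was given by 7 lists with 65 genes. Of these, 53 stood at 1 CPM or above in libraries 2 and 3. edgeR tested 56 and called 0 between the labels, where it called 0% of all 19987 genes tested. Each library stands under both labels, so this count does not measure an effect of Fgf9. Between the libraries, 0 of the 53 passed 1.5-fold, against 3.88% of all genes at that level. Fgf1, Fgf18 and the sulfotransferase gene Hs3st1, 3 of the 53, differed by over 25%, against 14.6% of all genes, each with the higher level in library 2.

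Other secreted FGFs were low or absent. Of 13 ligand genes, 4 reached 1 CPM in both libraries. Fgf2 stood at 1.44 ± 0.0784 CPM per kb, and Fgf18, Fgf1 and Fgf22 at 1.40 ± 0.348, 1.12 ± 0.273 and 0.960 ± 0.0925. For Fgf2, Fgf18 and Fgf1 the range of the 2 libraries overlapped that of Fgf9, at 1.36 ± 0.160 CPM per kb. Fgf4, Fgf6, Fgf15, Fgf21 and Fgf23 had no reads, which allows up to 0.132 to 0.156 CPM (3 reads). Fgf8, an early patterning ligand, had 1 read in each library. Fgf11, Fgf12, Fgf13 and Fgf14, which encode FGF-like proteins that stay in the cell and bind sodium channels, all reached 1 CPM. The highest of them, Fgf11, had 3.61 ± 0.212 CPM per kb.

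Among cofactors, the klotho genes Kl and Klb, whose proteins serve the hormone-like FGFs, stayed under 1 CPM, at 0.761 ± 0.0465 and 0.546 ± 0.0429 CPM. Fgfbp1, which encodes a secreted carrier that releases FGFs from the matrix, had 5.29 ± 0.336 CPM per kb. Heparan sulfate proteoglycans reached far higher levels: 11 of 12 core protein genes had at least 1 CPM in both libraries. Hspg2 (perlecan) led at 104.3 ± 7.66 CPM per kb. Gpc3 (glypican 3) had 84.9 and 105.0 CPM per kb in libraries 2 and 3, followed by Agrn (agrin) at 67.1 ± 1.38 and Sdc4 (syndecan 4) at 37.4 ± 2.12. All 15 genes of heparan sulfate enzymes reached 1 CPM. Sulf2, which encodes a sulfatase that removes sulfate groups from heparan sulfate outside the cell, stood at 69.8 ± 5.94 CPM per kb. The sulfotransferase gene Ndst1 followed at 24.6 ± 1.08 and the chain-starting gene Extl3 at 24.2 ± 0.687.

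All 12 genes of receptor adaptors and partners reached 1 CPM. Shc1 and Ptpn11 (the phosphatase SHP2) led at 21.8 ± 0.629 and 20.7 ± 0.283 CPM per kb, next to Fgfr2 at 20.3 ± 1.35. Grb2, an adaptor that brings Sos proteins to the activated receptor, stood at 17.4 ± 0.124, and the phospholipase gene Plcg1 at 17.1 ± 0.120. All 5 genes of splicing regulators reached 1 CPM. Esrp2 and Esrp1, epithelial factors that favour the IIIb exon, stood at 17.0 ± 0.574 and 13.8 ± 0.965 CPM per kb; Esrp1 was named after its value was seen. Ptbp1 and Rbfox2, general splicing factors known to act on this exon pair, stood at 88.6 ± 3.83 and 35.4 ± 0.00773. These are levels of the factors, and the use of either exon was not measured.

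**Figure D4:**
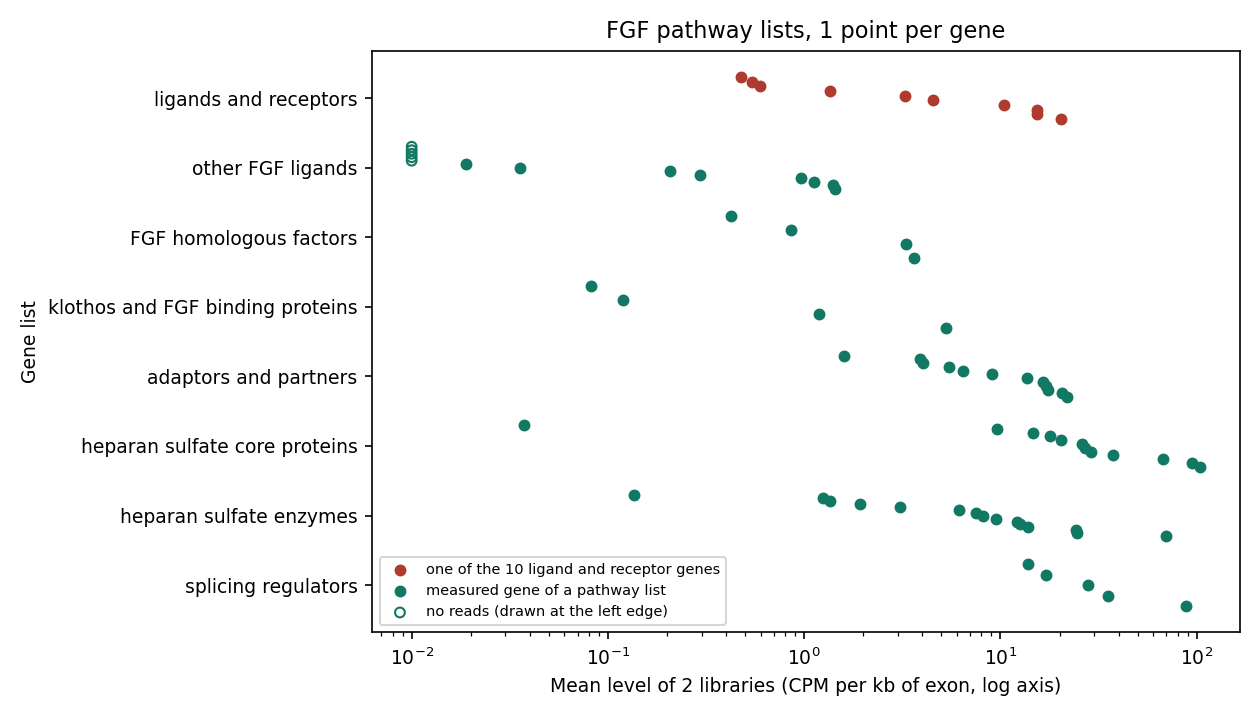
Mean level over 2 libraries, in CPM per kb of annotated exon on a log axis, for the 10 ligand and receptor genes (red) and for 65 genes of 7 pathway lists (green), 1 point per gene; open circles at the left edge are genes with no reads. The other ligands lie at or under 1.44 CPM per kb, while heparan sulfate core proteins reach 104.3.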

How the data were processed

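Total RNA of embryonic stomachs was depleted of ribosomal RNA, copied with random hexamers and sequenced from both fragment ends, per the labels' protocols. The deposited values are estimated counts for Ensembl genes, with no scaling to depth or length. Salmon 1.8.0, Trimmomatic 0.33, FastQC 0.10 and edgeR, and the builds mm10 and GRCm38, are named without roles in the submitters' processing notes. Annotation release and use of strand: not given in the sources used here. Columns were matched to samples by title and grouped by the genotype field, although the titles call the controls WT; 2 further columns of values have no name and were not used. Whether each name stands over its own column is not settled by these sources.

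CPM was computed on the column total, and same-numbered columns were averaged to 1 library. The replicate numbers pair columns of 1 library: their deviations from the group means correlated at 0.999. Lengths and coordinates come from GENCODE M21 (GRCm38), which held 50870 of the 51098 genes. Rounded counts went into edgeR 4.0.16 (R 4.3.3; TMM, filterByExpr, quasi-likelihood, Benjamini-Hochberg, threshold 0.05), which was tested on simulated data, as were DESeq2 1.42.0 and limma 3.58.1. The simulated columns were 4 separate libraries, unlike the deposited ones, so that check does not bear on the fits between the labels. No source says that samples are separate embryos, so p-values reflect the spread of these columns alone. Rates between libraries have exact conditional 95% intervals, for counting error only. A count of 1 was worth 0.0440 to 0.0519 CPM. The rule for named genes took the 10 ligand and receptor genes and up to 4 of each pathway list, highest per kb first; not all of these are named, and Esrp1, Hs3st1 and the ligand genes that were low or without reads were named after their values were seen. The genes and lists were chosen with earlier results of these data known. As 2 libraries give 1 difference, no gene was named for a like pattern.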

Additional observations from a re-analysis of the deposited data

How the results depend on the processing

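The count of 0 genes called by edgeR between the labels stayed at 0 with RLE factors, no filter, the stricter filter and limma-voom. DESeq2 called 3 genes and the fit with a replicate block called 6, each library being paired with its own copy. Leaving out 1 column gave 1 to 2 called genes, where the single column left is taken to vary as the other group does; such contrasts hold the 2 libraries in unequal numbers. None of the 10 genes was called in the fits of all 4 columns, block included. Each library stands under both labels there, so this outcome was fixed by the columns and is no check of an effect of Fgf9. The log2 folds of the 10 genes ran from -0.00116 to 0.000817 over these fits. Without 1 column they ran from -0.211 to 0.211, and their sign changed with the column left out. With a limit of 25% in place of 1.5-fold, 1 gene, Fgf10, differed between the libraries. With the longest transcript 6 of the 10 genes kept their rank per kb and with the median transcript 5 did; the length itself sets these shifts. The count of genes at 1 CPM was 8 with TMM scaling and with the columns of either label, 9 without ribosomal, 7SK and 7SL RNA genes in the library size, and 10 at 0.5 CPM. Leaving out those RNA genes raised all 10 levels by 1.20 to 1.21 times. Depth limits Fgf16, Fgf20 and Fgf7, with 18 to 36 reads a library, and 2 independent libraries limit every comparison.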
